A study of Saccharomyces cerevisiae with 6 samples.

Results

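The genes examined here encode the subunits of the nuclear RNA polymerases of Saccharomyces cerevisiae. The 31 genes were taken by name from the 18646 transcriptional units of a count table, and all 31 were found. RNA-seq compared wild-type W303 cells (WT), a laboratory strain of budding yeast, with otherwise isogenic W303 cells that lack SET2 (Δset2, labelled set2::His3 knockout, whereas the methods name a KanMX cassette). Each group held 3 samples, each prepared from its own colony, and all cultures grew in rich medium (YPDA) to an optical density of 0.6. Total RNA was depleted of rRNA, and 200 ng per sample was read from one end at a length of 76 nt, with all libraries pooled.

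RNA polymerase I (Pol I) transcribes the large rRNA precursor, RNA polymerase II (RNAPII) transcribes mRNAs, and RNA polymerase III (Pol III) transcribes tRNAs and 5S rRNA. Each enzyme has a pair of large catalytic subunits, a core that is partly shared, a stalk, and small peripheral subunits. All of the subunit genes are themselves transcribed by RNAPII. Set2 binds the phosphorylated repeat domain of Rpo21, the largest RNAPII subunit, and methylates histone H3 at lysine 36 behind the elongating enzyme. By composition, 7 of the genes encode subunits found only in Pol I, 7 only in RNAPII, and 10 only in Pol III. A further 2 are common to Pol I and Pol III, and 5 are common to all 3 enzymes.

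Many Pol I and Pol III subunit genes carry a promoter element named for them, the PAC box (polymerase A and C). It often occurs near a second element, RRPE, which is likewise found before ribosome assembly genes. The core of the PAC box (GATGAG) and that of RRPE (AAAAATTT) were searched on both strands, from 250 bases before to 50 bases after the start codon. The sequence came from RefSeq (build R64, numbered as in sacCer3), and W303 itself may differ. The sites shown here, with 12 bases on each side and GATGAG in capitals, are from the genes with the clearest differences below and from those with the longer form GCGATGAG.

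RPC40, chrXVI:746901-746930, minus strand: aaaaattattgcGATGAGttgaaagaaaaa
RPC19, chrXIV:412632-412661, plus strand: atattcacctgcGATGAGctggaaaaaaaa
RPA49, chrXIV:182721-182750, minus strand: attttttattgcGATGAGctgaaattttcc
RPC82, chrXVI:919146-919175, plus strand: ttccttcaatgcGATGAGcttttgaaaaat
RPC31, chrXIV:348587-348616, plus strand: ataggttgctgcGATGAGgaaactattttc
RPC25, chrXI:176658-176687, plus strand: aaaattttaagcGATGAGcatcgcctgaat
RPA190, chrXV:960803-960832, minus strand: tttaagagatgaGATGAGatttgaaataaa
RPC34, chrXIV:635341-635370, minus strand: atgtatttgtgaGATGAGatcattacagaa
RET1, chrXV:733569-733598, minus strand: ttgtaattgtgaGATGAGctgaaaattttt
RPA14, chrIV:769454-769483, minus strand: ctctgccttaccGATGAGacctctataatc

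The PAC core was unevenly spread over the enzymes. It lay wholly before the start codon in 6 of 7 genes for Pol I subunits, in 8 of 10 for Pol III subunits, and in both genes common to Pol I and Pol III. It did so in 0 of 7 RNAPII genes and 0 of 5 genes common to all 3 enzymes, compared with 17.0% of all 6001 promoters. The exceptions among the Pol I and Pol III genes were RPA12, RPC11, and RPC17. In RPB2 a match began 33 bases after the first base of the start codon, inside the coding sequence. In RPA135 and RPC37 a match spanned the start codon itself, but both genes also had a match further upstream. The longer form GCGATGAG was found in 6 of the 31 promoters and in 3.93% of all promoters, and both this form and the limit to upstream matches were chosen after the data were seen. The RRPE core was spread more evenly, in 6 of 7 Pol I genes, 7 of 10 Pol III genes, 2 of 7 RNAPII genes, and 4 of 5 genes common to all 3 enzymes, compared with 14.1% of all promoters. Some matches overlap each other, since RRPE nearly reads the same on both strands and GATGAG can repeat within 11 bases, as before RPA190. A match describes letters only, and binding was not measured.

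**Figure D1:**
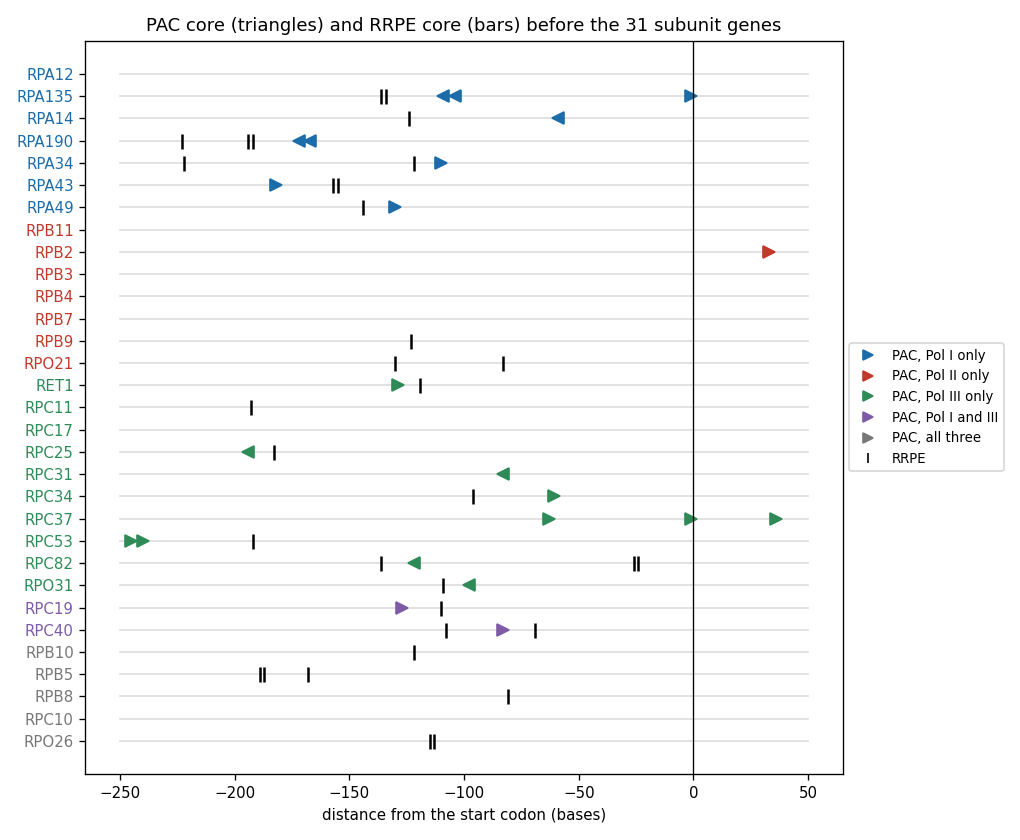
Position of PAC core matches (triangles, pointing right where the match reads along the gene and left where it reads against it) and RRPE core matches (bars) before the 31 subunit genes, in bases from the start codon, with genes colored by enzyme. Triangles before the start codon are found in 16 of the 19 genes for Pol I and Pol III subunits and in none of the 12 genes for RNAPII or common subunits.

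Counts were read on 28 of the 31 genes. RPB4 (RNAPII stalk), RPB11 (an assembly subunit of RNAPII), and RPC25 (Pol III stalk) had 0 reads in every sample. The authors discarded reads that touched more than one unit on either strand, and these 3 units had 20, 0, and 39 bases outside other units, fewer than the 76 nt of a read. Nothing can be said here about the level of these 3 mRNAs. RPB4 is covered by YUR1 on the opposite strand over 837 of its 857 nt. The other 28 genes had from 42 reads (RPC37 in Δset2 sample 2) to 28953 reads (RPA190 in Δset2 sample 3) per sample, and 8 of them had no base shared with another unit.

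Library totals ran from 5135226 to 22536840 reads, with both extremes in Δset2. SET2 (YJL168C) itself had between 298 and 459 reads in WT and between 9 and 32 in Δset2, a log2 fold change of -4.27. The mating type a genes MFA1, MFA2, STE2, and BAR1 were expressed in every sample, with log2 fold changes between -0.30 and 0.27, none past the threshold. Of the mating type alpha genes, MFALPHA1 had 0 to 2 reads per sample, MFALPHA2 had no base of its own and 0 reads, and STE3 had 14 to 22 reads in WT and 1 to 5 in Δset2 (log2 fold change -2.44, edgeR adjusted P = 0.0069, and 0.053 and 0.096 without WT 3 or Δset2 3). The median log2 fold change of all 5317 units tested was -0.004.

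In Δset2 the mRNAs of the polymerase subunits were close to their WT levels. With edgeR's quasi-likelihood test and Benjamini-Hochberg adjustment over all tested units, 1 of the 28 genes passed an adjusted P value of 0.05, RPA14, which was higher in Δset2. Over all units 6.24% passed (4.48% higher and 1.77% lower in Δset2). With DESeq2, 364 of all units passed, and the single subunit gene past the threshold was RPA190, which was lower. None of the 28 also exceeded a fold change of 1.5, compared with 3.57% of all units. At an unadjusted P value below 0.05, 2 of the 28 were higher and 6 lower, compared with 12.8% and 10.7% of all units. For 25 of the genes the 95% interval of the fold change lay inside 1.5-fold in both directions. RPA14, RPC17, and RPC31 were the others, and over all 28 genes the intervals reached from 0.583-fold to 1.75-fold.

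Within these limits the estimates leaned to one side. The log2 fold change was below 0 in 23 of the 28 genes, compared with 50.5% of all tested units, and the median was -0.17. In 9 genes the 3 Δset2 samples all lay below the 3 WT samples, compared with 13.8% of all units, and in 2 genes (RPA14 and RPB7) all lay above, compared with 14.1%. The medians were -0.20 for the 7 Pol I genes, -0.22 for the 9 Pol III genes, -0.21 for the 2 genes common to Pol I and Pol III, -0.07 for the 5 genes common to all 3 enzymes, and 0.001 for the 5 RNAPII genes. These medians depended on single samples. The Pol I median was -0.090 without WT 1, and the Pol III median was -0.12 without Δset2 3. The median of the common genes was -0.028 without WT 1, -0.029 without Δset2 1, -0.044 without WT 3, and -0.12 without Δset2 2. The RNAPII median was below 0 without WT 2, WT 3, Δset2 1, or Δset2 2, down to -0.039. Of the 18 tested genes for Pol I and Pol III subunits not found in RNAPII, 17 had a value below 0, with RPA14 the exception. Of the 10 tested genes for RNAPII and common subunits, 6 did. These genes vary together from sample to sample and are not independent, and the difference between the classes was not tested.

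**Figure D2:**
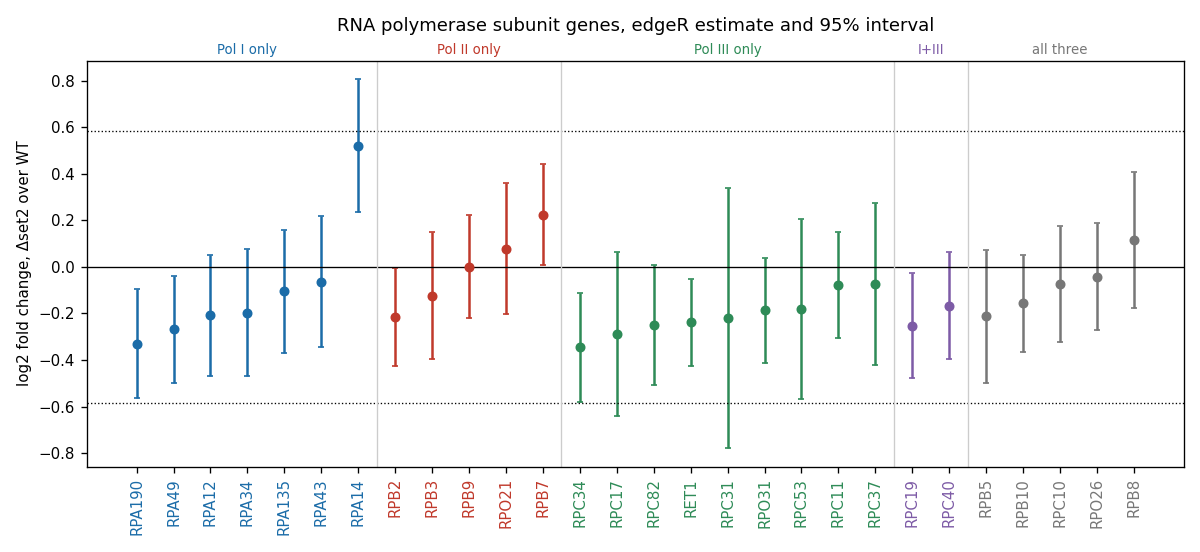
Log2 fold change of each tested subunit gene in Δset2 over WT (points, edgeR estimates from 3 and 3 samples) with 95% intervals (bars), grouped and colored by enzyme. Dotted lines mark a fold change of 1.5, and RPA14 is the gene farthest above 0 and RPC34 the one farthest below.

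Among the subunits found only in Pol I, RPA14 rose. It encodes a stalk subunit, the partner of Rpa43, and its unit (YDR156W) spans chrIV:769488-769938 on the plus strand. Its CPM (reads scaled to a common library size by TMM normalization) was 10.9, 9.54, and 11.5 in WT samples 1, 2, and 3, and 14.7, 16.9, and 14.96 in Δset2 samples 1, 2, and 3. Every Δset2 value was above every WT value. The log2 fold change was 0.52 (standard error, SE, 0.13, edgeR adjusted P = 0.043), a fold change of 1.44 (95% interval 1.18 to 1.75). RPA14 was counted on only 212 of its 451 nt, since CUT510, a cryptic unstable transcript on the opposite strand, covers 239 nt of it. Strand was not used in counting, so sense and antisense RNA over the remaining bases cannot be told apart. The estimate was positive in each alternative, from 0.44 to 0.58, but the adjusted P value was 0.068 with DESeq2 and between 0.083 and 0.15 without any single sample other than WT 2 (0.046 without WT 2, edgeR).

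The catalytic subunits of Pol I gave other values. RPA190 (YOR341W, chrXV:960870-966190) encodes the largest subunit, and its CPM was 1607, 1582, and 1797 in WT and 1310, 1392, and 1267 in Δset2. The groups did not overlap, and the log2 fold change was -0.33 (SE 0.11, edgeR adjusted P = 0.094). With DESeq2 the adjusted P value was 0.037, and without WT sample 2 it was 0.049 (edgeR), so RPA190 stood at the edge of the threshold. RPA135, which encodes the second largest subunit, had a CPM of 1253, 1045, and 1305 in WT and 1162, 1168, and 1022 in Δset2, with overlapping groups and a log2 fold change of -0.10.

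No peripheral Pol I subunit gene other than RPA14 passed the threshold. RPA49 and RPA34 encode the partners of a TFIIF-like heterodimer. RPA49 had a CPM of 212, 181, and 212 in WT and 154, 180.2, and 168 in Δset2 (log2 fold change -0.27, edgeR adjusted P = 0.15, and 0.045 without WT sample 2). Its groups were separated only by the narrow gap between Δset2 sample 2 and WT sample 2. The log2 fold changes of RPA34, of RPA12 (a zinc-ribbon subunit that acts in RNA cleavage), and of RPA43 (stalk) were -0.20, -0.21, and -0.06, with overlapping groups. RPA43 and RPA190 are neighbors that are transcribed away from each other.

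**Figure D3:**
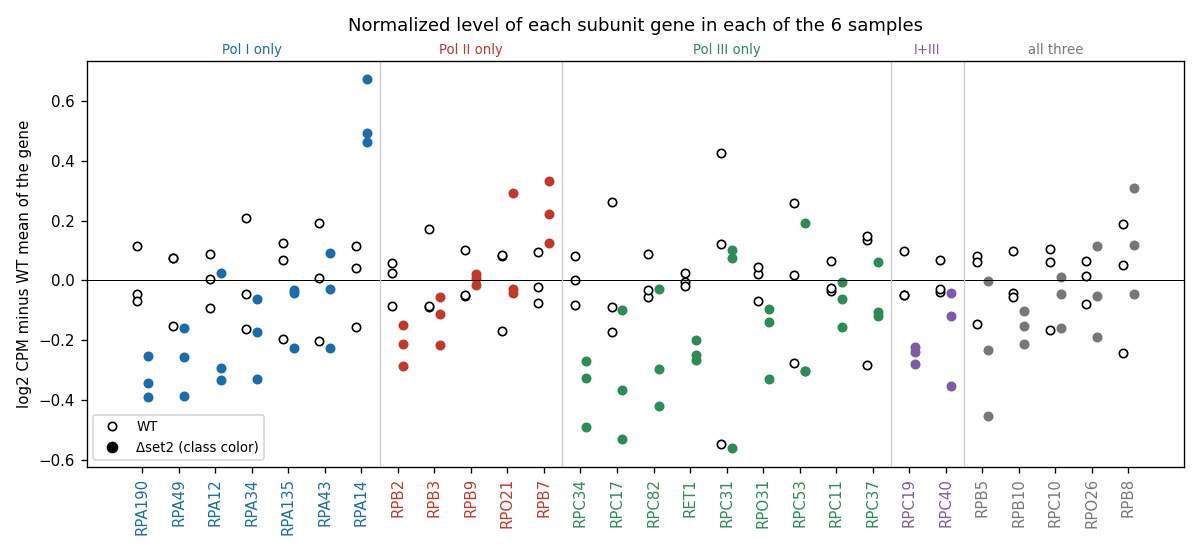
Log2 CPM of each tested subunit gene in each sample, minus the mean of that gene in WT, with open circles for the 3 WT samples and filled circles for the 3 Δset2 samples. All filled circles lie above the open ones for RPA14 and RPB7, and below them for 9 genes, among them RPA190, RPC34, and RET1.

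Among the subunits found only in RNAPII, 0 of 5 genes passed the threshold with either edgeR or DESeq2. At an unadjusted P value below 0.05 edgeR gave 1 higher and 1 lower, compared with 12.8% and 10.7% of all units. RPO21 (YDL140C, chrIV:205236-211164), whose product carries the repeat domain bound by Set2, had a CPM of 957, 804, and 959 in WT and 1106, 879, and 887 in Δset2. The groups overlapped, with a single high value in Δset2 sample 1. The log2 fold change was 0.08 (SE 0.13, 95% interval -0.20 to 0.36, edgeR adjusted P = 0.76), and without Δset2 sample 1 it was -0.039.

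RPB7, which encodes a stalk subunit, had the highest estimate of this class. Its CPM was 68.9, 74.8, and 66.4 in WT and 76.3, 88.1, and 81.6 in Δset2, without overlap, and its log2 fold change was 0.22 (SE 0.10, edgeR adjusted P = 0.20). RPB2, which encodes the second largest subunit, had the lowest. Its CPM was 531, 481, and 520 in WT and 419, 461, and 441 in Δset2, again without overlap, with a log2 fold change of -0.21 (SE 0.09, edgeR adjusted P = 0.20). RPB3 (an assembly subunit) and RPB9 (zinc ribbon) had log2 fold changes of -0.12 and 0.001. The sign of RPB9 depended on the scaling, as it was negative with DESeq2 and with DESeq2's size factors.

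All 9 tested genes for Pol III subunits had a log2 fold change below 0, compared with 50.5% of all units, and 0 passed the threshold with edgeR or DESeq2. At an unadjusted P value below 0.05, 2 were lower with each tool, compared with 10.7% of all units with edgeR. RPC34 (YNR003C, chrXIV:634022-635326) encodes a subunit of the trimer that contacts the initiation factor Brf1. Its CPM was 31.3, 33.1, and 29.6 in WT and 25.0, 22.3, and 26.0 in Δset2. The groups did not overlap, and the log2 fold change was -0.35 (SE 0.10, edgeR adjusted P = 0.083), the lowest of the 28 genes. The other trimer subunits, RPC82 and RPC31, had log2 fold changes of -0.25 and -0.22. RPC31 was the least precise of all, with a CPM from 8.65 to 17.0 within WT alone and a standard error of 0.25.

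The large Pol III subunits were lower in each Δset2 sample than in any WT sample. RPO31, which encodes the largest subunit, had a CPM of 525, 492, and 534 in WT and 469, 483, and 411 in Δset2 (log2 fold change -0.19, edgeR adjusted P = 0.30). RET1, which encodes the second largest subunit, had a CPM of 271, 265, and 263 in WT and 224, 222, and 232 in Δset2 (log2 fold change -0.24, standard error 0.08, edgeR adjusted P = 0.12). The spread within each group was small beside the gap for RET1. RPC17 (stalk, log2 fold change -0.29), the TFIIF-like pair RPC53 and RPC37 (-0.18 and -0.07), and RPC11 (RNA cleavage and termination, -0.08) had overlapping groups, and RPC37 was the highest of the class.

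RPC40 and RPC19 encode the assembly heterodimer common to Pol I and Pol III, the counterpart of Rpb3 and Rpb11. RPC19 had a CPM of 27.1, 24.5, and 24.5 in WT and 21.5, 21.7, and 20.9 in Δset2, with no overlap and a log2 fold change of -0.25 (SE 0.10, edgeR adjusted P = 0.17). It was counted on 282 of its 617 nt. RPC40 had a CPM of 276, 278, and 297 in WT and 222, 275, and 261 in Δset2 (log2 fold change -0.17, edgeR adjusted P = 0.37), with Δset2 sample 2 just under the lowest WT value. Both genes thus had all their Δset2 samples on the lower side, neither past the threshold.

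The genes common to all 3 enzymes ranged from -0.21 to 0.12 on the log2 scale. RPB8 had the highest estimate, with a CPM of 94.9, 77.5, and 104 in WT and 99.4, 113, and 88.8 in Δset2 (log2 fold change 0.12, edgeR adjusted P = 0.64). RPB5, the jaw subunit, had the lowest, with a CPM of 69.3, 68.4, and 59.2 in WT and 47.9, 55.8, and 65.4 in Δset2 (log2 fold change -0.21, edgeR adjusted P = 0.35). Both genes had overlapping groups. RPB10 (log2 fold change -0.16) was lower in each Δset2 sample than in any WT sample, and RPC10 and RPO26 had values of -0.07 and -0.04.

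Subunits that hold the same place in the enzymes can also be set side by side, although differences between genes were not tested. The largest subunits had log2 fold changes of -0.33 (RPA190), 0.08 (RPO21), and -0.19 (RPO31). For the second largest subunits these were -0.10 (RPA135), -0.21 (RPB2), and -0.24 (RET1). For the zinc-ribbon subunits they were -0.21 (RPA12), 0.001 (RPB9), and -0.08 (RPC11). For the stalk they were 0.52 (RPA14) and -0.29 (RPC17), and -0.06 (RPA43) and 0.22 (RPB7). The second largest subunits had an estimate below 0 in all 3 enzymes, though for RPA135 the groups overlapped.

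Levels per length differed far more between subunits than between strains. CPM per kilobase was computed over the bases of each unit that lie in no other unit, and the highest and lowest genes of Pol III differed 10.2-fold. Among Pol I genes the WT levels were 314 for RPA135 and 312 for RPA190, which did not differ beyond their spread, and 42.4 for RPA43 at the lower end. RNAPII genes ranged from 25.7 (RPB3) to 156 (RPO21). Pol III genes ranged from 10.7 (RPC37) to 109 (RPO31), with RET1 at 73.9. The 5 genes common to all 3 enzymes ranged from 58.2 (RPC10) to 161 (RPB8), a 2.77-fold span. RPC40 had a level per kilobase of 228 and RPC19 one of 89.95, a 2.53-fold span. Among the tested genes specific to a single enzyme, the highest level per kilobase thus belonged to a catalytic subunit in each of the 3 classes. The order of RPA135 and RPA190 is not resolved. RPB4, RPB11, and RPC25 could not be counted, so the ranges of RNAPII and Pol III leave them out. Genes for shared subunits reached or passed the highest levels of the tested Pol III and RNAPII genes, with RPC40 above RPO31 and RPO21, and RPB8 close to RPO21. None reached the level of RPA135 or RPA190. Short stretches hold fewer whole reads, which lowers the values of small genes such as RPA14 (50.3 here, and 23.6 over the full unit).

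**Figure D4:**
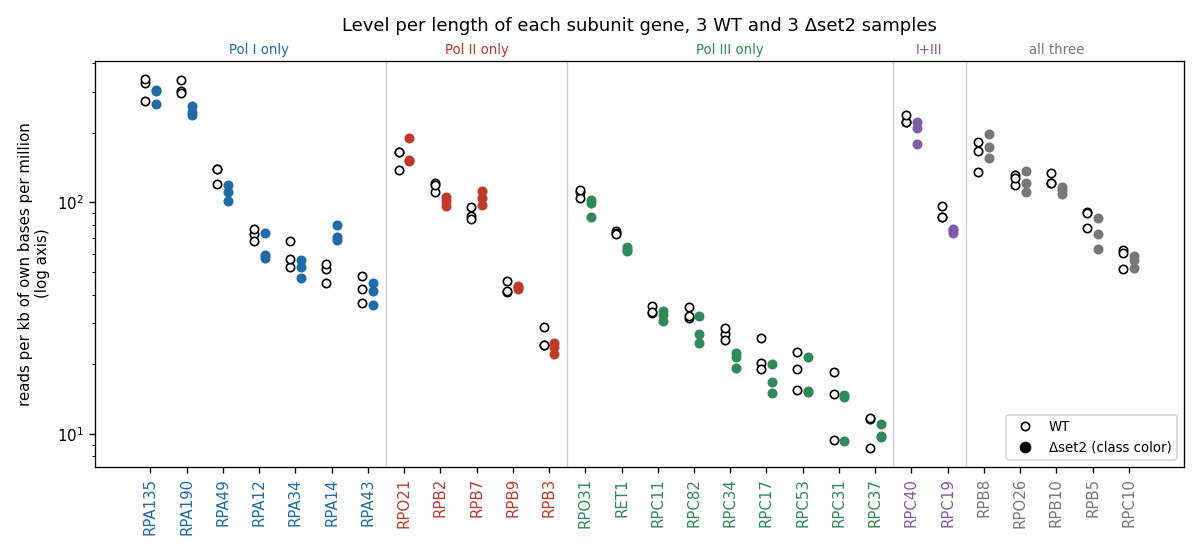
Level of each tested subunit gene in CPM per kilobase of its own bases (log axis), with open circles for the 3 WT samples and filled circles for the 3 Δset2 samples, ordered by WT mean within each enzyme. Levels run from 10.7 (RPC37) to 314 (RPA135) in WT, and differences between WT and Δset2 are small beside this range. RPA14 has the largest fold change, with a mean of 50.3 in WT and 73.2 in Δset2.

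The lean of the Pol I and Pol III genes was not even over the samples. For each gene the log2 CPM was set relative to its WT mean, and the median was taken over the genes of a class. For Pol III genes this median was 0.06, -0.06, and -0.02 in WT and -0.25, -0.10, and -0.27 in Δset2. All Δset2 samples were lower, but Δset2 sample 2 was close to WT sample 2. For Pol I genes it was 0.07, -0.16, and 0.09 in WT and -0.29, -0.03, and -0.23 in Δset2. Here the groups overlapped, with Δset2 sample 2 above WT sample 2. For RNAPII genes it was 0.08, -0.08, and -0.05 in WT and 0.01, -0.04, and -0.03 in Δset2, so that the Δset2 samples lay within the WT range.

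Grouped by promoter element, the 15 tested genes with an upstream PAC core had a median log2 fold change of -0.20, with 14 below 0, and the 13 without had a median of -0.08, with 9 below 0. All 15 genes with the upstream core encode Pol I or Pol III subunits, so the core and the class cannot be told apart here. In the full window, which adds RPB2, 16 genes had the core (15 below 0, median -0.21) and 12 lacked it (8 below 0, median -0.08). Over all tested protein-coding genes, 610 of 1025 with the core in that window were below 0, and 1964 of 4012 without. The Pol I and Pol III genes without it, RPA12, RPC11, and RPC17, also had values below 0. Among all tested protein-coding genes with a promoter in the reference, those with an upstream PAC core (854 genes) had a median of -0.07, with 60.8% below 0. Those without (4183 genes) had a median of 0.005, with 49.1% below 0. RPA14, the gene past the threshold with edgeR, has the core and was higher, and RPA190, the gene past it with DESeq2, has the core and was lower. Of the sites printed above, those of RPC34, RPA190, RET1, RPC40, RPC19, and RPA49 belong to genes with non-overlapping lower values. Those of RPC31 and RPC82 belong to genes whose groups overlapped, and that of RPC25 to a gene without reads. The printed sites were chosen in part by these differences and cannot show a link to the core. Among the genes not printed, RPO31 has the core and RPB2 and RPB10 lack it upstream, and each had non-overlapping lower values. RPA135, RPA43, RPA34, RPC37, and RPC53 have the core and overlapping groups. Over all units 13.8% had non-overlapping lower values. All 5 tested genes with the longer form had a value below 0, with a median of -0.25. Among all tested protein-coding genes with the longer form, 169 of 226 had a value below 0, with a median of -0.17. Grouped by the RRPE core, the subunit genes hardly differed. The 20 with it had a median of -0.17, with 16 below 0, and the 8 without had a median of -0.17, with 7 below 0. Among all tested protein-coding genes, 506 of 768 with the RRPE core were below 0 (median -0.11), and 2068 of 4269 without (median 0.009). The cause of these differences was not tested.

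**Figure D5:**
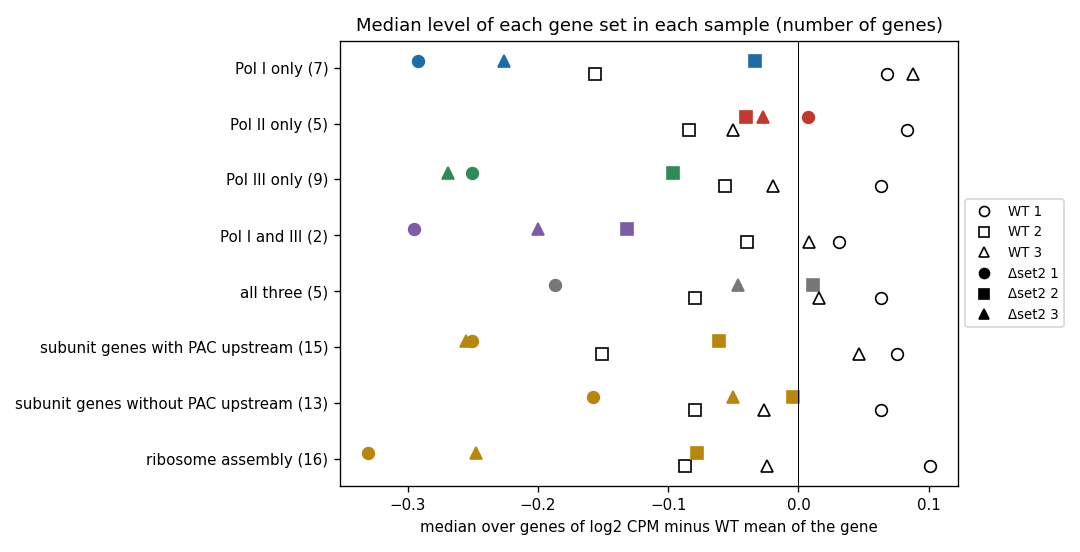
Median over the genes of each set of the log2 CPM minus the WT mean of the gene, for each of the 3 WT samples (open) and 3 Δset2 samples (filled), with the number of genes in parentheses. For Pol III genes all Δset2 samples lie left of the WT samples, whereas for Pol I genes Δset2 sample 2 (-0.03) lies right of WT sample 2 (-0.16).

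Genes that act with the polymerases were examined in the same fit. Over all tested units, 6.24% passed the threshold with edgeR, and 50.5% had a log2 fold change below 0. At an unadjusted P value below 0.05 (edgeR), 12.8% of all units were higher and 10.7% lower. Of 7 tested Pol I initiation factors, 0 passed the threshold with edgeR or DESeq2 (1 higher at an unadjusted P value below 0.05 with edgeR), and the median log2 fold change was -0.11. The highest was RRN5, a subunit of the upstream activating factor, at 0.32 (edgeR adjusted P = 0.19), and the lowest RRN11, of the core factor, at -0.21 (edgeR adjusted P = 0.50). RRN10 was not tested, with 5 reads in a single sample. Of 19 tested general factors of RNAPII, 0 passed with either tool (3 lower at an unadjusted P value below 0.05 with edgeR), and 15 had a value below 0, with a median of -0.14. TOA1 (TFIIA) was the highest at 0.11, and TFB2 (TFIIH) the lowest at -0.34 (edgeR adjusted P = 0.15, and 0.041 without WT sample 2). TOA2 had at most 4 reads per sample and was not tested.

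Of 10 tested Pol III factors, 1 passed with both tools, compared with 6.24% of all units with edgeR, and the median was 0.003. TFC7 (YOR110W, chrXV:528801-530281), a subunit of TFIIIC, had a CPM of 18.2, 16.6, and 17.6 in WT and 26.9, 22.1, and 25.9 in Δset2. The Δset2 values were all above the WT values, with a log2 fold change of 0.53 (SE 0.11, edgeR adjusted P = 0.026). Without a single sample the adjusted P value ranged from 0.020 to 0.14 and did not pass in 4 of the 6 cases, those without WT 1, WT 3, Δset2 1, or Δset2 3. MAF1, the repressor of Pol III, had a log2 fold change of 0.07, and PZF1 (TFIIIA) was the lowest at -0.11. Of 6 tested genes for assembly and nuclear import of the polymerases, 0 passed with either tool, and 0 had an unadjusted P value below 0.05, with log2 fold changes between -0.16 (NPA3) and 0.02 (RBA50). GPN2 had no base of its own and 0 reads.

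Ribosome assembly genes, which act downstream of Pol I, were also mostly on the lower side. All 16 carry an upstream PAC core. In 15 the log2 fold change was below 0, compared with 50.5% of all units, and the median was -0.20. With edgeR 0 passed the threshold, and 6 were lower at an unadjusted P value below 0.05, compared with 10.7% of all units. With DESeq2 1 passed, RRP5, an assembly factor for both subunits. The lowest was NSR1 (nucleolin-like) at -0.42 (edgeR adjusted P = 0.27, and 0.017 without WT sample 2), and the highest NOP1 (fibrillarin) at 0.40 (edgeR adjusted P = 0.26). Both estimates rested heavily on single samples. NSR1 was at -0.64 without WT 2 and -0.27 without WT 3, and NOP1 was at 0.20 without WT 2, 0.24 without Δset2 2, and 0.61 without WT 1. The median by sample was 0.10, -0.09, and -0.02 in WT and -0.33, -0.08, and -0.25 in Δset2. Here Δset2 sample 2 lay beside WT sample 2, whereas for Pol I genes it lay above WT sample 2. In the other lists the share with an upstream PAC core varied, and medians are of tested genes. The core was upstream in 5 of 8 Pol I initiation factors (median -0.11) and 3 of 20 RNAPII factors (median -0.14). It was upstream in 1 of 10 Pol III factors (median 0.003) and 5 of 7 assembly and import genes (median -0.07). A link between the core and the fold changes of these lists was not tested.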

How the data were processed

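RNA-seq was analysed for 3 WT and 3 Δset2 samples, grouped by their labels. Tophat was used by the authors to align reads (sacCer3). They kept reads with a single position and a mapping quality of at least 20, and deposited raw read counts per transcriptional unit (summarizeOverlaps, without strand, reads over more than one unit discarded). The deposited FPKM values, the mean normalized count (a signal pooled over samples), and the authors' own comparison (log2 fold changes with standard errors, a test score, and p-value columns) were not used. Columns of samples outside the study numbered 0.

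The test on the 6 columns of counts used edgeR 4.0.16 (with limma 3.58.1 under R 4.3.3): filterByExpr, TMM, glmQLFit, and glmQLFTest over 5317 units, without a term for the replicate number. Standard errors came from the log2 fold change and the root of its F statistic, and 95% intervals use the moderated degrees of freedom. Replicates varied with a common biological coefficient of 0.121. DESeq2 1.42.0 was an alternative, and both fits were checked on simulated counts. For 3 against 3 samples the smallest P value of an exact permutation test is 0.1, so no such test is given. Levels are TMM-normalized CPM, or CPM per kilobase. Medians and figures used Python 3.11.15, pandas 2.3.3, and matplotlib 3.10.9.

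All 31 genes matched a RefSeq locus tag, and for 5986 of 5989 matched units the RefSeq gene lay inside the unit. Protein sequences were not used here, so protein identities between counterparts were not computed. The rule for named genes took members past the threshold, RPO21, and the highest and lowest estimate of each class or list, and the values of the other members were added. The members and lists were chosen with earlier results of these data known.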

Additional observations from a re-analysis of the deposited data

How the results depend on the processing

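SET2 kept its direction and side of the threshold in each alternative that could test it (with at least 10 reads in each sample required, it was not tested). Without a filter, with a stricter filter, with DESeq2, DESeq2's size factors, or upper quartile scaling, with only protein-coding units, and after removal of the most abundant 1% of units, the number of subunit genes past the threshold stayed at 1, but with DESeq2 the gene was RPA190 in place of RPA14. RPB9 turned negative with DESeq2 (-0.0072) and with its size factors (-0.0016). With the replicate number as a block, 0 subunit genes passed, and over all units 75 passed the adjusted P value and 75 both thresholds, compared with 332 and 190. The block took the adjusted P value to 0.17 for RPA14, 0.12 for TFC7, and 0.058 for STE3 (edgeR). Same-numbered samples did not deviate together (correlations of -0.32, -0.37, and -0.13). Samples of unlike number had correlations from -0.11 (WT 1 and Δset2 3) to 0.33 (WT 1 and Δset2 2). With 3 samples per group these values cannot decide whether the numbers mark a shared batch. With single samples left out, 0 to 3 subunit genes passed (RPA14, RPA49, and RPA190 without WT 2, and 0 without any other sample). Over all units 81 (without Δset2 3) to 788 (without WT 2) then passed the adjusted P value and 80 to 373 both thresholds. The medians ranged from -0.24 to -0.12 for Pol III, -0.26 to -0.090 for Pol I, -0.039 to 0.049 for RNAPII, -0.25 to -0.17 for genes common to Pol I and Pol III, and -0.12 to -0.028 for genes common to all 3 enzymes. Signs turned within -0.16 to 0.033 for RPA43, -0.039 to 0.13 for RPO21, -0.027 to 0.049 for RPB9, -0.20 to 0.00032 for RPC37, -0.12 to 0.028 for RPO26, -0.45 to 0.021 for RPC31, -0.18 to 0.037 for PZF1, and -0.060 to 0.16 for RBA50. Leaving out a sample also leaves 2 samples in a group. Levels per kilobase over the full unit differed from those over own bases by more than 1 SD for 11 genes. With 3 samples per group, the intervals of RPA14, RPC31, and RPC17 reached beyond 1.5-fold. That of RPC37, the gene with the fewest reads in a sample, did not (0.746 to 1.21).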
